A study of Nannochloropsis oceanica with 18 samples.

Results

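The change of histone H3 lysine 27 acetylation (H3K27ac) after 2 days of nitrogen deprivation (ND) was measured by chromatin immunoprecipitation sequencing (ChIP-seq) in Nannochloropsis oceanica IMET1, a marine microalga that stores oil. The comparison comprised the 4 H3K27ac libraries of cells kept 2 days without nitrogen (N2) and of nitrogen-replete cells (C0), of 18 libraries in the series, over all 3803 regions measured. The other libraries covered H3K27ac after 1 day (N1) and lysine crotonylation (Kcr) and H3 lysine 36 dimethylation (H3K36me2) at all 3 conditions. N2 cells were spun down, rinsed with nitrogen-free medium and kept in it under weaker light than the growing culture that gave C0, so that nitrogen loss, transfer and light cannot be told apart. The labels name the same antibody catalogue number for H3K27ac and H3K36me2, whereas the study's methods name a different antibody for each, and which was used was not settled by these sources.

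Acetyl groups are placed on lysine 27 of histone H3 by acetyltransferases and removed by deacetylases. In animals and plants the mark is typical of active promoters and enhancers, and it excludes the methylation of the same lysine that accompanies silencing. Crotonylation is a related acyl mark, whereas H3K36me2 is set by methyltransferases and often lies over gene bodies. Under ND, Nannochloropsis slows its division and lays down triacylglycerol, and the question was where acetylated chromatin shifted in the course of this response. Genes are not assigned to the regions here, and each region is given by its position in the deposited table.

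For each library and region the table holds a pileup, the depth-scaled coverage, and a background, the coverage expected there locally. Their ratio, with 0.5 added to each, is the level used below, and its log2 is the enrichment. The steps between pileup values corresponded to 1.96 and 2.22 M fragments in the N2 libraries and to 4.55 and 4.97 M in the C0 libraries, so that C0 was the deeper group. Across regions the enrichment of the 2 libraries correlated at r = 0.968 in N2 and 0.993 in C0, and the SD of the log2 difference between them was 0.216 and 0.167. The libraries of a pair differed by less than independent counts would (chi-square per degree of freedom 0.744 in N2 and 0.774 in C0), so each group was counted as 1 sample and both library values are printed instead of an SD. The tests therefore compare these libraries, and their errors may be technical. The background ranked regions nearly as that of Kcr did in the same condition (Spearman rho 0.998 in N2 and 0.994 in C0). Its median was lower, at 23.9 and 23.7 in N2 (Kcr 25.2) and 20.2 in C0 (Kcr 22.2 and 22.1). The H3K27ac C0 libraries had equal background in 90.1% of regions, so that marks and replicates do not have independent backgrounds.

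After 2 days of ND, H3K27ac was flatter over the genome. The median ratio was 1.87 and 1.88 in the N2 libraries, against 2.55 and 2.55 in the C0 libraries. The SD of the enrichment over regions was 0.856 and 0.864 in N2, against 1.37 and 1.38 in C0, and the slope of N2 on C0 enrichment was 0.57. The SD was also smaller in N2 for Kcr (0.743, against 1.13 and 1.14 in C0). For H3K36me2 it was 0.330 and 0.331 in N2, against 0.520 in C0, so a smaller spread was not particular to H3K27ac. Strong regions thinned out most. A ratio of at least 4 was found in 66 and 73 regions of the N2 libraries, against 605 and 619 of the C0 libraries, and a ratio of at least 6 in 7 and 9, against 72 and 77. The number of regions under a ratio of 1 hardly differed, with 1019 and 1031 in N2 and 1031 and 1029 in C0.

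By limma with Benjamini-Hochberg adjustment, 2961 regions (77.9%) were called, of which 899 (23.6% of those tested) were higher and 2062 (54.2%) lower in N2. At 2-fold or more, 243 (6.39%) were higher and 259 (6.81%) lower, which became 600 and 60 after centring, 740 and 35 with equal medians, 440 and 63 on the pileup alone, 116 and 45 when spreads were equal too, and 22 and 164 at a pseudocount of 5. The median log2 difference of all regions was -0.31, with quartiles of -0.66 and 0.32. Both N2 libraries lay above both C0 libraries in 1129 regions (29.7%) and below them in 2277 (59.9%). The balance of the calls followed the scale on which the libraries were compared. It was 977 higher (25.7%) against 582 lower (15.3%) when all libraries were given equal medians and spreads, 1611 against 930 with equal medians alone, 1353 against 1260 centred on the median difference, and 1181 against 1469 on the pileup without the background.

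**Figure D1:**
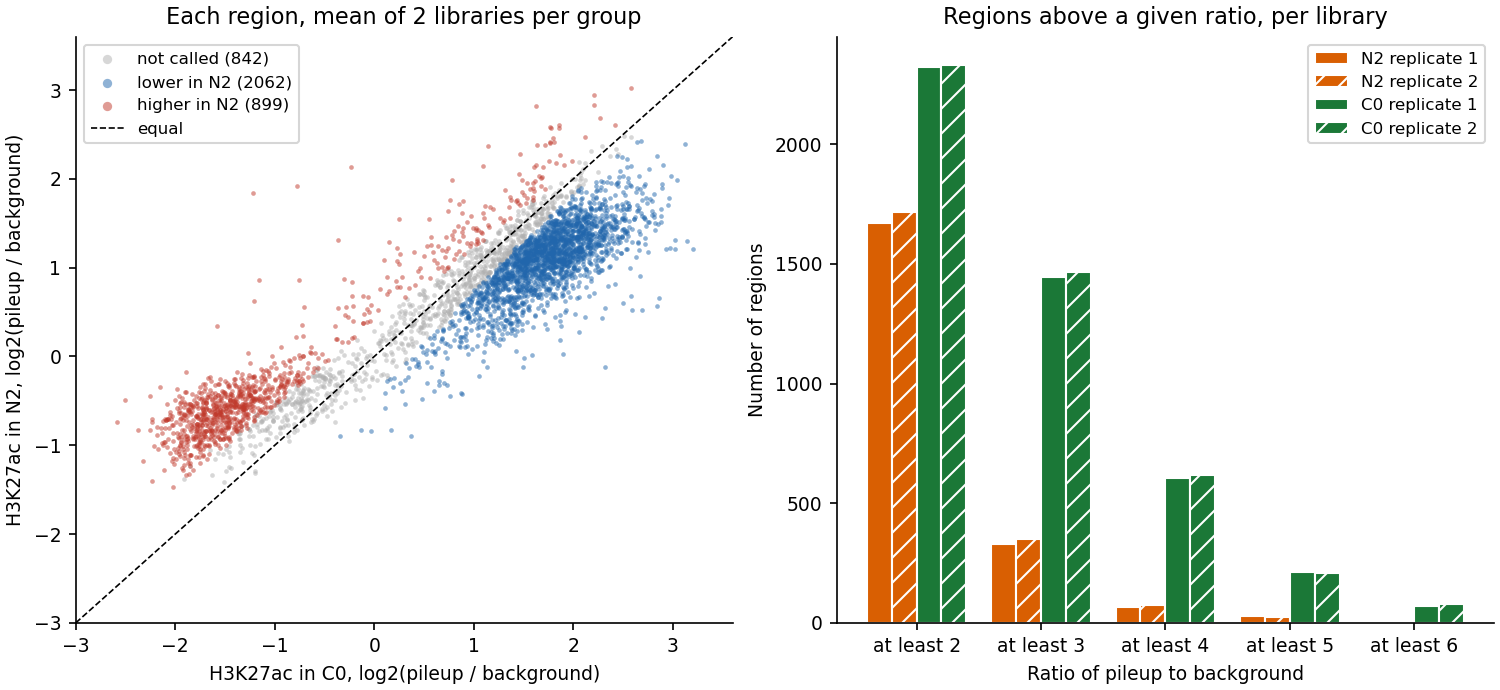
Left, log2 ratio of pileup to background in N2 against that in C0 for each of 3803 regions (mean of 2 libraries each), with the 899 regions called higher in red, the 2062 called lower in blue and the line of equality dashed. Right, the number of regions at or above a given ratio in each library. The cloud is shallower than the dashed line (slope 0.57), and regions at a ratio of at least 4 numbered 66 and 73 in N2 and 605 and 619 in C0.

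As measured, regions called lower had higher ratios and were longer than those called higher. The C0 ratio is part of the difference that was called, so a part of this contrast in level follows from the choice. The median ratio of the regions called higher was 0.697 in N2, against 0.376 in C0, at a median width of 1629 bp, and 709 of the 899 stayed under a ratio of 1 in N2. Only 129 of them had a ratio of at least 2 in N2. For the regions called lower the median ratio was 2.17 in N2, against 3.39 in C0, at a median width of 4768 bp, and 1285 of the 2062 still had a ratio of at least 2 in N2. As measured, the acetylated regions of replete cells thus mostly had a lower ratio in N2 and were not lost. This balance depended on the scale, as given above. Of 2285 regions with a ratio of at least 2 in both C0 libraries, 1465 also had at least 2 in both N2 libraries, and 536 were under 2 in both. In these 536 the median ratio was 1.67 in N2, against 2.68 in C0. The reverse step, at least 2 in both N2 libraries and under 2 in both C0 libraries, was made by 48 regions, of which 40 were called higher.

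A small group of acetylated regions held its level as measured. In 110 regions the 95% interval of the difference lay within 1.2-fold in either direction, and 103 of these had a ratio of at least 2 in C0. The rule needs a small error, which favours strong regions. The median SE of all regions was 0.11, against 0.20 at a weak region of chromosome 27 (235479 to 244171; mean ratio 0.71 in N2). The 103 of 110 thus does not show that strong regions held their level more often than weak ones. The clearest case by the naming rule, the smallest difference among the 100 highest regions of C0, was on chromosome 25 (355678 to 361924). Its ratio was 5.43 and 5.70 in the N2 libraries, against 5.95 and 6.00 in the C0 libraries, a log2 difference of -0.10 ± 0.06 (SE; adjusted p = 0.13, limma). The groups did not overlap there. It was the 12th highest region in N2 and the 73rd in C0, and it was called higher with equal medians and spreads (log2 difference 1.08).

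Both parts of the ratio differed. The median background was 23.9 and 23.7 in the N2 libraries, against 20.2 in each C0 library, and it was higher in N2 at 3506 of 3803 regions. The median pileup was 46.0 and 46.3 in N2, against 54.0 and 53.9 in C0. As log2 differences, the median was -0.08 for the pileup and 0.24 for the background. Where regions were called, the pileup mostly moved in the same direction. With the background higher in N2 at most regions, a higher ratio nearly required a higher pileup. Of the 899 regions called higher, 898 had a higher pileup in both N2 libraries than in either C0 library, with a median log2 pileup difference of 0.99. Of the 2062 called lower, the pileup was lower in both N2 libraries at 1733, higher in both at 54 and overlapping at 275, with a median of -0.37. How far the background and the depth of the libraries took part in these calls was not tested.

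The leading gains were regions with little or no enrichment in replete cells. The naming rule placed first a region of chromosome 29 (486115 to 487678), with a ratio of 3.31 and 3.85 in the N2 libraries, against 0.437 and 0.420 in the C0 libraries. Its pileup was 81.7 and 93.5 in N2, against 9.45 and 9.05 in C0. The groups lay far apart, with a log2 difference of 3.06 ± 0.12 (SE; adjusted p = 4.78e-14, limma), and the region was 129th of all in N2 and 3204th in C0. On chromosome 17 (162269 to 166306) the ratio was 3.55 and 4.03 in N2, against 0.621 and 0.550 in C0 (log2 difference 2.69 ± 0.10). On chromosome 15 (154657 to 156641) it was 4.33 and 4.48 in N2, against 0.856 and 0.842 in C0 (2.37 ± 0.09). These 3 regions were below their background in C0 and among the 129 highest in N2. On chromosome 12 (113172 to 119603) the ratio was 2.31 and 2.67 in N2, against 0.816 and 0.740 in C0 (1.68 ± 0.12), again without overlap.

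Other gains started from a ratio above 1. On chromosome 26 (621845 to 624570) the ratio was 2.81 and 3.03 in N2, against 1.19 and 1.18 in C0, and on chromosome 20 (207013 to 208841) it was 2.25 and 2.63, against 1.19 and 1.03. A second region of chromosome 29 (535059 to 537289) had 4.24 and 3.72 in N2, against 1.63 and 1.82 in C0. Regions that were acetylated in C0 also gained. On chromosome 6 (1279399 to 1284565) the ratio was 7.08 and 7.09 in N2, against 3.24 and 2.92 in C0, which made it the 4th highest region in N2 and the 1379th in C0. On chromosome 27 (150845 to 156325) it was 5.26 and 5.07 in N2, against 2.13 and 2.27 in C0, and on chromosome 5 (403774 to 413878) 4.43 and 4.38, against 2.16 and 2.10. The log2 differences of these 6 regions were 1.05 to 1.30, and the largest adjusted p among all 10 named gains was 5.97e-08 (limma).

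**Figure D2:**
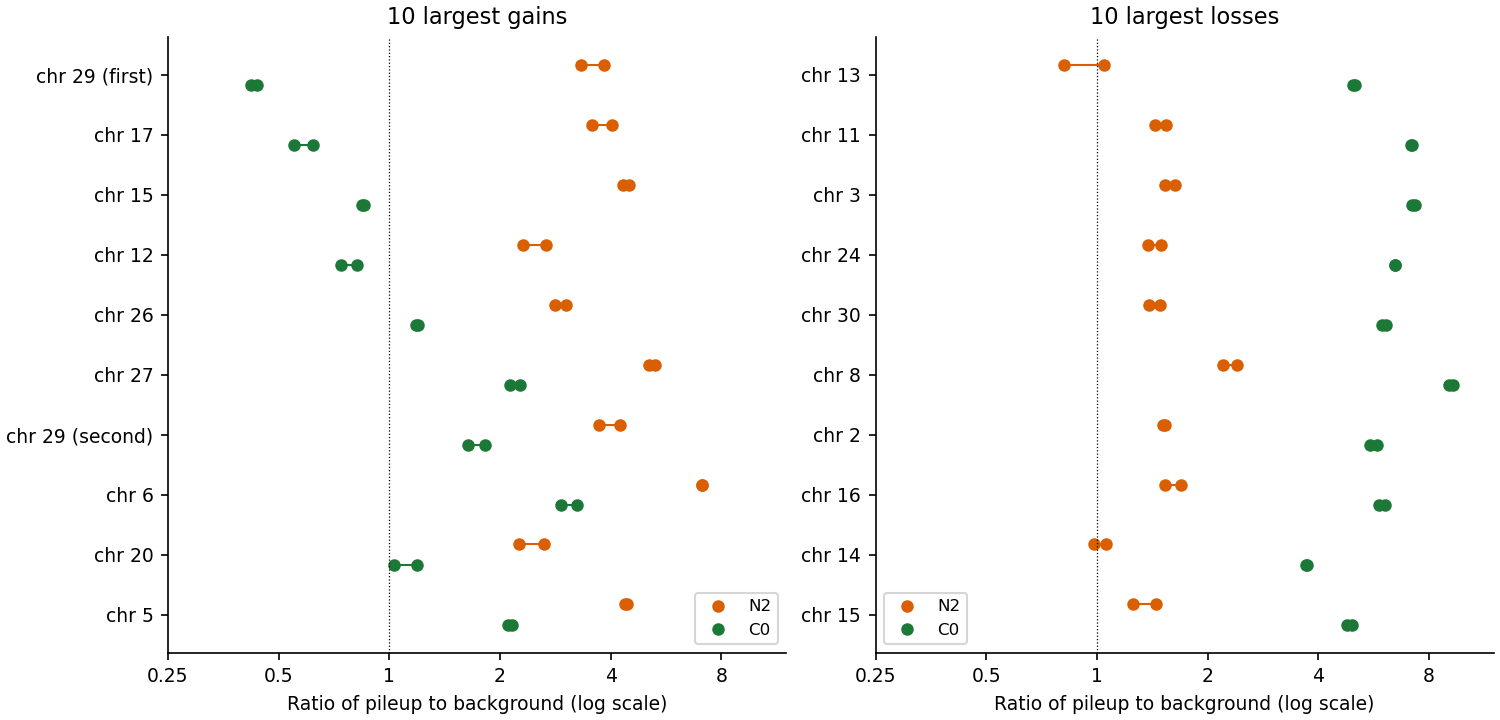
Ratio of pileup to background (log scale) in each library of N2 (orange) and C0 (green) for the 10 regions with the largest gain and the 10 with the largest loss by the naming rule, ordered by the size of the difference. The groups are separate in all 20 regions: the uppermost gain has 3.31 and 3.85 in N2 against 0.437 and 0.420 in C0, and the uppermost loss has 0.813 and 1.04 in N2 against 4.97 and 5.02 in C0.

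The named losses ranked between the 1st and the 806th of all regions in C0, where the naming rule required a mean ratio of at least 2 in N2 or C0. The largest, on chromosome 13 (936659 to 938705), had a ratio of 0.813 and 1.04 in the N2 libraries, against 4.97 and 5.02 in the C0 libraries, and a pileup of 15.8 and 20.2, against 84.2 and 85.0. The log2 difference was -2.44 ± 0.15 (SE; adjusted p = 7.74e-11, limma), and the region was 2821st in N2 and 207th in C0. It was the only named loss besides chromosome 14 (648952 to 650863; 0.981 and 1.06 in N2, against 3.71 and 3.72 in C0) in which an N2 library was under a ratio of 1. A region of 18.7 kb on chromosome 11 (782447 to 801163) had 1.44 and 1.54 in N2, against 7.17 and 7.15 in C0 (-2.27 ± 0.08). It was 2396th in N2 and 20th in C0.

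The remaining named losses kept a ratio above 1. On chromosome 3 (571577 to 577466) the ratio was 1.53 and 1.63 in N2, against 7.35 and 7.21 in C0, and on chromosome 24 (592986 to 597825) 1.38 and 1.50, against 6.45 and 6.47. A region of chromosome 30 (217870 to 223061) had 1.39 and 1.48 in N2, against 5.96 and 6.11 in C0. Chromosome 2 (1442251 to 1449291) had 1.51 and 1.53 in N2, against 5.76 and 5.54 in C0. Chromosome 16 (808670 to 817040) had 1.69 and 1.53 in N2, against 5.86 and 6.09 in C0, and a region of only 791 bp on chromosome 15 (573092 to 573882) had 1.26 and 1.44 in N2, against 4.95 and 4.79 in C0. The log2 differences of these 4 regions were -2.07 to -1.86. On chromosome 8 (916027 to 924317), the highest region of C0, the ratio was 2.21 and 2.41 in N2, against 9.04 and 9.31 in C0 (-1.99 ± 0.08), and it was 1123rd in N2. The direction of all 20 named gains and losses was called alike on the 4 scales, which are the values as measured, centred, with equal medians and spreads, and the pileup alone.

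The named regions were also compared with N1. At the first region of chromosome 29 the mean ratio took the values 0.428 in C0, 5.38 in N1, then 3.57 in N2. The second had a mean of 1.72 (C0), 6.59 (N1) and 3.97 (N2). N2 was called lower than N1 in 5 of the 10 named gains and higher in 0 of them by limma. Among the 10 named losses N2 was called lower than N1 in 5 and higher in 2. The share of such calls over all regions is not given here, so these counts have no general rate beside them. The enrichment was also spread more widely over regions in N1 (SD 1.248 and 1.220) than in N2 (0.856 and 0.864). Whether the named regions differed from other strong regions between N1 and N2 was not tested. In the loss on chromosome 13 the ratio was 0.471 and 0.559 in N1, below its N2 values, whereas on chromosome 14 it was 2.20 and 1.91 in N1, above them.

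Most of the highest regions of N2 were not among the highest of C0. The 50 highest regions of N2 and the 50 highest of C0 had 5 in common (10% of each list), whereas the 2 libraries of N2 shared 46 and those of C0 44. Any N2 library shared 3 to 5 with any C0 library. Of the 100 highest, 22 were shared (22% of each list), against 81 and 84 between libraries of a group. On the pileup alone the lists shared 12, against 46 and 44 between libraries of a group. Ranks do not move when a whole library is rescaled. The 50 highest regions of C0 had a median ratio of 3.01 in N2, against 7.01 in C0, and all 50 were called lower. The 50 highest of N2 had a median ratio of 5.02 in N2, against 4.30 in C0, where their median rank was 428, and 29 were called higher and 11 lower. Since each list was chosen by its own level, a part of these differences follows from the choice.

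The highest region of N2 was on chromosome 26 (239273 to 261725), with a ratio of 8.10 and 8.21 in N2, against 6.05 and 5.90 in C0. It was followed by chromosome 9 (107001 to 115486) with 7.35 and 8.03, against 4.57 and 4.66, and by chromosome 14 (703425 to 739410) with 6.92 and 7.37, against 4.78 and 4.44. In C0 these regions were 74th, 310th and 313th. In N2 the libraries of the regions on chromosomes 9 and 14 overlapped, and the region of chromosome 26 exceeded that of chromosome 9 by less than the libraries on chromosome 9 differed. The 2nd highest region of C0, on chromosome 6 (921281 to 940020), had 2.45 in each N2 library, against 8.94 and 8.78 in C0. The 3rd, on chromosome 11 (1017219 to 1020476), kept 5.14 and 5.35 in N2, against 8.74 and 8.68 in C0. Its log2 difference of -0.73 ± 0.06 turned to 0.51 with equal medians and spreads.

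Broad regions of 12 kb or more were mostly lower as measured, with a few gains. Of 479 such regions, 404 (84.3%) were lower and 25 (5.22%) higher, beside 54.2% and 23.6% of all regions. With equal medians and spreads the balance of broad regions turned, to 168 higher and 63 lower. The named gains were on chromosome 27 (188087 to 200637), with 3.20 and 3.36 in N2, against 1.83 and 1.79 in C0, again on chromosome 27 (296912 to 316265), with 5.04 and 4.67, against 2.69 and 2.83, and on chromosome 3 (1564892 to 1591727), with 5.58 and 6.41, against 3.54 and 3.28. Their log2 differences were 0.81 to 0.86. Besides the region of chromosome 11 above and the 2nd highest region of C0, the named losses included chromosome 14 (825002 to 839620), with 2.20 and 2.49 in N2, against 8.02 and 7.62 in C0 (-1.74 ± 0.08). All 25 broad gains and 63 of the 404 broad losses were called the same way on all 4 scales, beside 326 of 899 gains and 516 of 2062 losses over all regions. The median log2 difference of broad regions was -0.55 as measured, 0.11 with equal medians and spreads and -0.27 on the pileup alone. This upward move makes it easier for a broad gain than for a broad loss to be called on all 4.

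Adjacent regions were compared next. Over 3773 pairs of adjacent regions, with a median gap of 1520 bp, the log2 differences correlated at r = -0.04 across pairs, and at r = 0.02 with equal medians and spreads. Of the 20 regions next to the 10 named gains, 6 were higher, 8 lower and 6 not called, and of the 20 next to the 10 named losses, 3 were higher, 10 lower and 7 not called, beside 23.6% higher and 54.2% lower over all regions. The gain on chromosome 17 lay between a region 411 bp before it that was lower (ratio 0.734 in N2, against 1.69 in C0) and a region of 20.3 kb that began 1057 bp after it and was also lower (2.35, against 4.16). The loss on chromosome 24 began 170 bp after a region that was not called (3.17 in N2, against 3.24 in C0).

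The 2 chromosomes with several named gains showed the same mixture. On chromosome 29 the 2 named gains bounded 51.2 kb with 6 regions, of which 4 were higher and 2 lower. Another strong region of this stretch (493048 to 496620) had 3.13 and 3.70 in N2, against 1.65 and 1.74 in C0, and the 20.5 kb region between the gains (509408 to 529890) had 4.03 and 4.17, against 6.39 and 6.24. On chromosome 27 the 3 named gains spanned 165.4 kb with 13 regions, of which 4 were higher, 5 lower and 4 not called. There the region next to the first gain (158653 to 179089) was not called (log2 difference 0.14 ± 0.07, adjusted p = 0.087, limma), with 5.07 and 4.89 in N2, against 4.66 and 4.40 in C0.

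**Figure D3:**
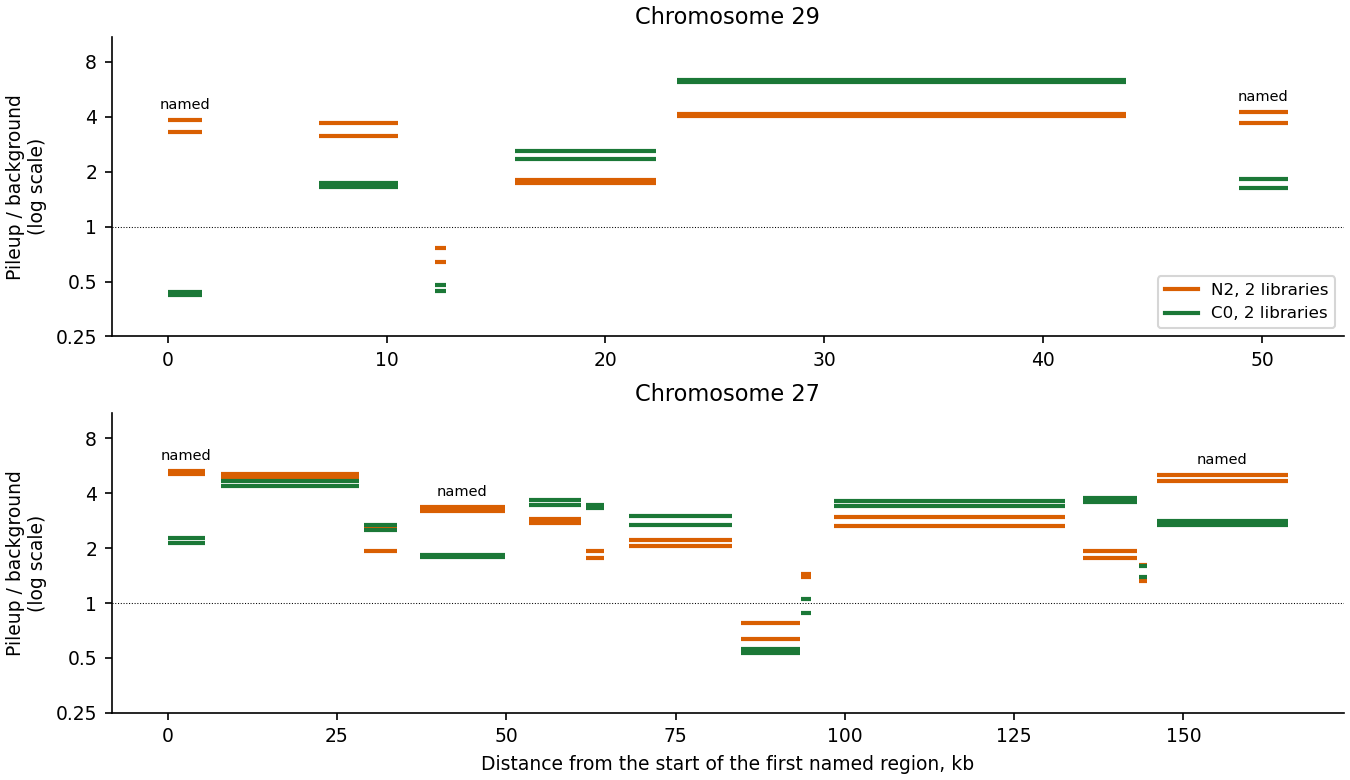
Ratio of pileup to background (log scale) along the stretches of chromosomes 29 and 27 that hold several named gains, in kb from the start of the first named gain. Each bar spans 1 region in 1 library, orange for N2 and green for C0. Higher and lower regions lie in the same stretch: on chromosome 29 the named gains at both ends have N2 above C0, whereas the 20.5 kb region between them has 4.03 and 4.17 in N2 against 6.39 and 6.24 in C0.

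Regions were then grouped by another mark. As measured, the H3K27ac ratio was mostly lower in N2 where the Kcr ratio in C0 was 2 or more. It was mostly higher where the Kcr ratio was under 1. Kcr was measured with another antibody, but its background ranked regions nearly alike, so the grouping and the H3K27ac ratio in C0 are not independent. Groups of regions are described by counts and medians without a test of their own. Of 979 regions with a Kcr ratio under 1 in C0, 722 (73.8%) were higher and 9 lower, at a median H3K27ac ratio of 0.668 in N2, against 0.386 in C0. Of 2419 regions with a Kcr ratio of 2 to under 4, 1895 (78.3%) were lower and 93 higher, at a median ratio of 2.22 in N2, against 3.18 in C0. All 77 regions with a Kcr ratio of 4 or more were lower, at a median log2 difference of -0.89. The 328 regions from 1 to under 2 were split, with 84 higher and 81 lower. When medians and spreads were made equal, 25.7% of all regions were higher and 15.3% lower. The class under 1 then had 169 of 979 higher and 18 lower. It kept more higher than lower calls, but its higher share was below that of all regions. The class of 4 or more had 6 of 77 higher and 29 lower, and the class of 2 to under 4 turned to 689 higher and 493 lower.

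**Figure D4:**
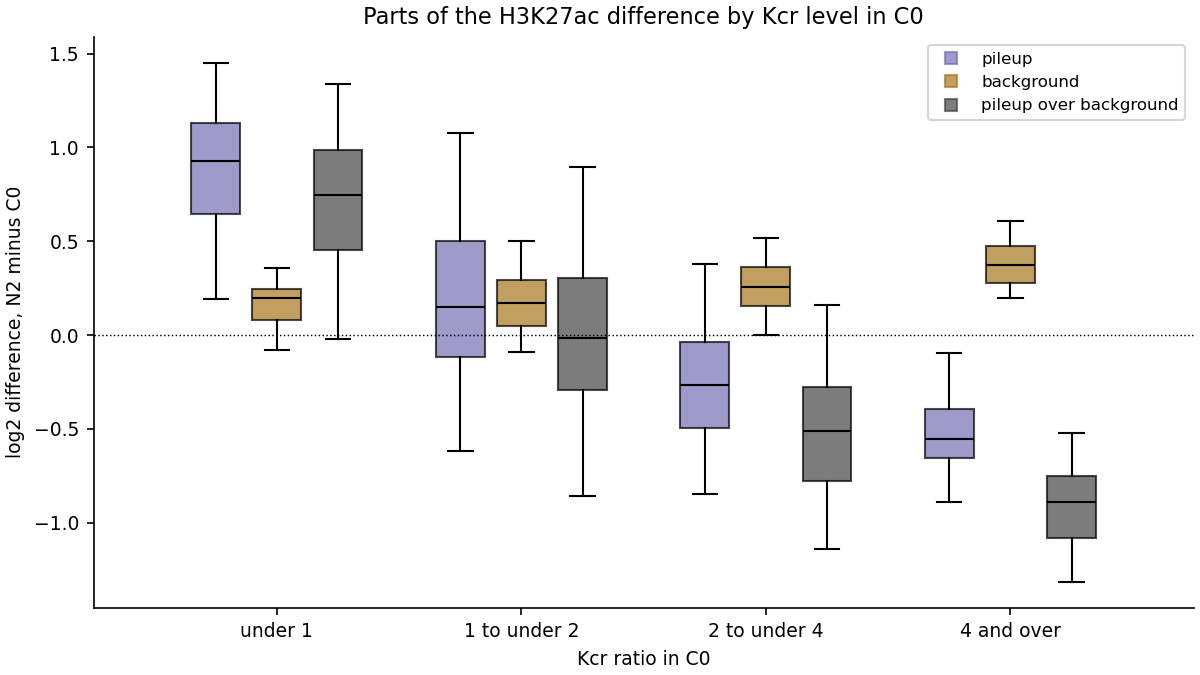
Log2 difference between N2 and C0 of the H3K27ac pileup, its background and the ratio of both, for regions grouped by their Kcr ratio in C0. Boxes give the quartiles over regions, the line the median and the whiskers the 5th and 95th percentiles. The median pileup difference is 0.93 for a Kcr ratio under 1 and -0.56 for 4 and over, whereas the background difference is positive in all 4 groups, from 0.17 to 0.37.

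Regions also differed by width. Among all regions as measured, 46.4% of the 535 under 1 kb were higher and 23.2% lower, with a median log2 difference of 0.39. The median was -0.15 at 1 to under 3 kb, -0.42 at 3 to under 12 kb and -0.55 at 12 kb or more. With equal medians and spreads, 67 of the 535 were higher and 83 lower. The medians from the shortest to the broadest class were then 0.03, 0.11, 0.10 and 0.11, so the fall with width was not kept. Among regions with a Kcr ratio of 2 to under 4 in C0, those under 1 kb had a median of -0.62 (96 of 126 lower), the next classes -0.50 and -0.49, and those of 12 kb or more -0.55 (391 of 464 lower). The median ratio of the short regions in this class was 1.39 in N2, against 2.22 in C0, and that of the regions of 12 kb or more 2.57, against 3.71. With equal medians and spreads the short regions of this class were 8 higher and 56 lower, whereas those of 12 kb or more were 166 higher and 56 lower.

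Regions near chromosome ends lost less. Within 50 kb of the first or last region of a chromosome, 163 of 489 (33.3%) were higher and 184 (37.6%) lower (median -0.05), against 736 (22.2%) and 1878 (56.7%) of 3314 interior regions (median -0.35). At a Kcr ratio of 2 to under 4 in C0 the end regions had 18 of 265 higher and 166 lower (median -0.36), against 75 and 1729 of 2154 interior regions (median -0.53). With equal medians and spreads these were 110 higher and 36 lower at the ends, against 579 and 457 in the interior. Regions were also split into 3 classes by their H3K36me2 ratio in C0. Over all regions as measured, 506 of 1519 in the upper class were higher and 731 lower (median log2 difference -0.15). With an H3K36me2 ratio under 1, 158 of 1218 were higher and 711 lower (median -0.37). At a Kcr ratio of 2 to under 4 in C0 the order was the other way. There 670 of the 763 regions in the upper class (median H3K36me2 ratio 1.37) were lower (median log2 difference -0.59). With an H3K36me2 ratio under 1 it was 631 of 878 (median -0.46).

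**Figure D5:**
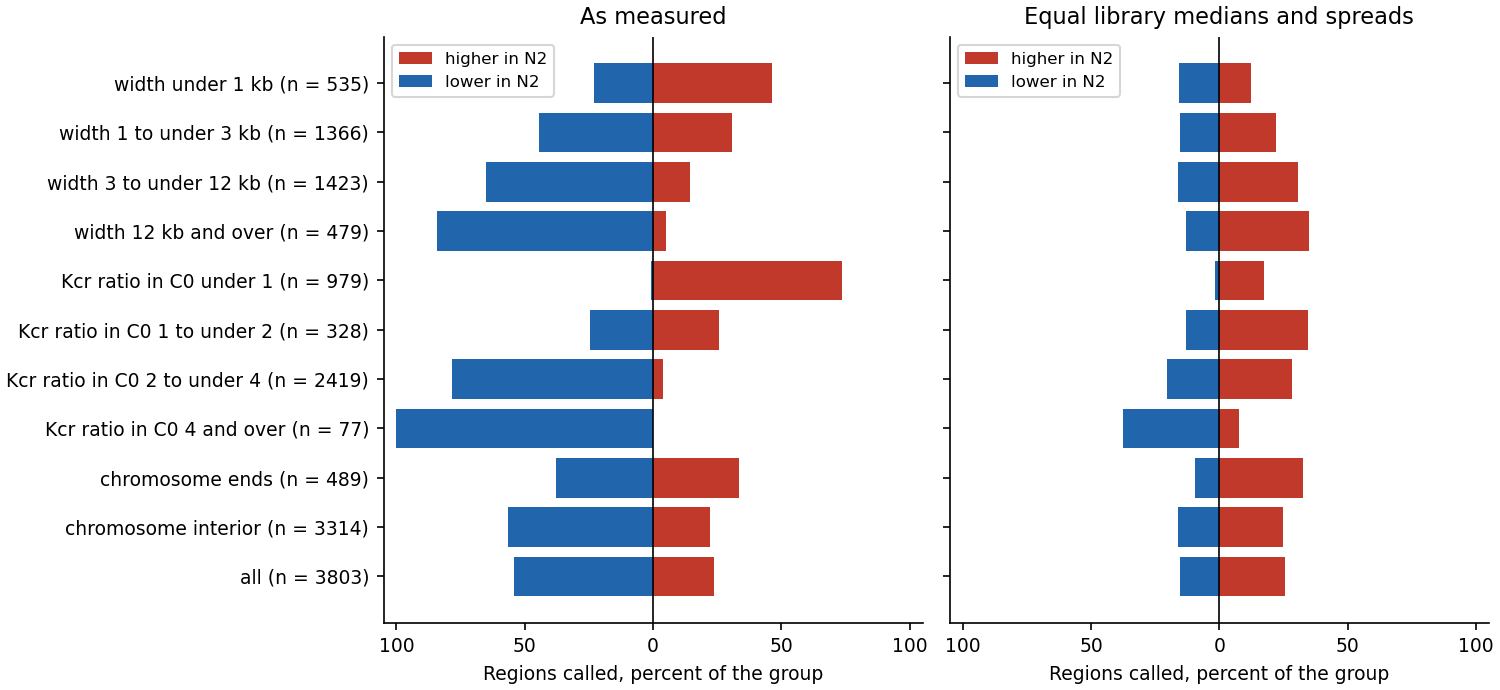
Percentage of regions called higher (red, to the right) or lower (blue, to the left) in N2 by width, by Kcr ratio in C0 and by distance to the chromosome end, as measured (left) and with equal library medians and spreads (right), with the number of regions per group. As measured, 73.8% of the regions with a Kcr ratio under 1 are higher and all 77 of 4 or more are lower. With equal medians and spreads the classes of intermediate Kcr and the widths of 1 kb or more have more higher than lower regions.

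The change of H3K27ac was next compared with that of Kcr in the same region. Kcr had 286 regions (7.52%) higher and 2134 (56.1%) lower in N2. The difference between the changes, tested in 1 limma model over the C0 and N2 libraries of both marks, was positive in 297 regions (7.81%) and negative in 193 (5.07%). These counts were 127 and 99 without H3K27ac C0 replicate 1 and 139 and 97 without C0 replicate 2, and 69 regions were negative with equal medians and spreads. The 2 Kcr libraries of N2 held identical values and entered once. Of the 10 named gains, 8 exceeded the change of Kcr, and the other 2, on chromosomes 26 and 27, did not pass (0.53 ± 0.19, adjusted p = 0.070, and 0.29 ± 0.16, adjusted p = 0.23). All 10 named losses were larger than the change of Kcr. The named regions were chosen by their H3K27ac change, which favours a larger change in that mark. The log2 difference of Kcr itself was -0.14 to 2.23 in the named gains and -1.42 to -0.62 in the named losses, against 1.05 to 3.06 and -2.44 to -1.86 for H3K27ac.

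The region of chromosome 17 led the positive differences, with H3K27ac changing by 2.69 and Kcr by 1.06 (difference of changes 1.63 ± 0.21, adjusted p = 2.83e-05, limma). The other 4 of the 5 largest were weakly covered regions on chromosomes 1, 18, 12 and 11, with H3K27ac ratios of 0.527 to 0.829 in the N2 libraries, against 0.188 to 0.276 in the C0 libraries. The negative differences were led by chromosome 11 (782447 to 801163), where H3K27ac changed by -2.27 and Kcr by -0.72 (-1.55 ± 0.13, adjusted p = 1.61e-07), followed by the losses on chromosomes 8, 3 and 24. There Kcr fell by less than the acetyl mark. On chromosome 8 the Kcr ratio was 1.95 in N2, against 2.98 and 3.02 in the C0 libraries. The 5th, a weak region at the start of chromosome 24 (17096 to 19608), had H3K27ac ratios of 0.529 and 0.593 in N2, against 0.991 and 0.965 in C0.

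At the second gain on chromosome 29 Kcr was not called, with a difference of -0.14 ± 0.11 (adjusted p = 0.27), against 1.20 for H3K27ac (difference of changes 1.35 ± 0.16, adjusted p = 5.58e-06, limma). At the broad gain on chromosome 27 (296912 to 316265) the marks were called in opposite directions, with Kcr changing by -0.32 and H3K27ac by 0.81, a difference of 1.13 ± 0.12. For the highest region of N2, on chromosome 26, the changes of 0.45 and 0.29 did not differ by the test (0.16 ± 0.09, adjusted p = 0.28). H3K36me2 had 618 regions (16.3%) higher and 737 (19.4%) lower in N2. It differed by -0.21 to 1.27 in the 10 named gains and by -0.33 to 0.53 in the 10 named losses, on a mark whose ratios reached no more than 2.12 in any N2 library.

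Calls that did not depend on the scale numbered 326 higher (8.57%) and 516 lower (13.6%), in the same direction as measured, centred, with equal medians and spreads and on the pileup alone. The 326 had a median ratio of 1.28 in N2, against 0.607 in C0, and 123 had a ratio of at least 2 in N2. The 516 had a median ratio of 1.76 in N2, against 3.61 in C0, and 487 had a ratio of at least 2 in C0. Both sets were found on all 30 chromosomes. They were closer in width than the sets as measured, with medians of 2239 and 3357 bp.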

How the data were processed

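The authors trimmed reads with Trim Galore, aligned them with BWA, marked duplicates with Picard, applied deepTools and called broad peaks with MACS2 against input, as the methods and the submitters' processing notes state. The tool versions, the genome build for ChIP-seq and the merging of peaks are not stated there. The authors deposited, for each library and merged region, a coverage signal (pileup) scaled to depth and a local background signal (lambda). Each pileup was a whole multiple of 1 step per library (tolerance 0.05 of a step, 100% of regions), and depth was read from that step. Which point or summary of a region the pileup gives is not stated. Coverage is not a count of reads, so no count model was used. Columns of the authors' scores, fold changes, p-values and status were not used, nor were 36 columns of libraries outside the labels used here.

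Enrichment was log2(pileup + 0.5) minus log2(background + 0.5), which understates changes of low values. It was fitted with limma-trend 3.58.1 (R 4.3.3) to the 6 H3K27ac libraries of N2, N1 and C0 (3 residual degrees of freedom), as N2 minus C0, with Benjamini-Hochberg adjustment over 3803 regions and a threshold of 0.05. Kcr and H3K36me2 were fitted alike. For each of them the N2 and C0 libraries held 3 distinct sets of values, and identical pairs entered once. The difference between the H3K27ac and Kcr changes was an interaction term over the N2 and C0 libraries of both marks. Both fits were tested on simulated data. Named regions were called, did not overlap between groups and had a mean ratio of at least 2 in N2 or C0. The 10 largest gains and losses, the 3 largest of each among regions of 12 kb or more, the 5 largest interaction differences in each direction, the 3 highest regions of N2 and of C0 and the steadiest of the 100 highest in C0 were named, the last 3 kinds without these criteria. Members, groups and rules were chosen with earlier results of these data known. Alternatives were other pseudocounts, filters, scalings, the pileup alone, the 4 libraries alone, a replicate block, limma without the trend and leaving out each library. No genome was used.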

Additional observations from a re-analysis of the deposited data

Results flagged for a closer look

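In 10 regions the change of H3K27ac between N2 and C0 was tested to differ from that of Kcr and was named for it, 5 in each direction. The difference of changes (log2, H3K27ac minus Kcr) was 1.63 on chromosome 17 (162269 to 166306), 1.52 on chromosome 1 (1595350 to 1596975), 1.51 on chromosome 18 (302646 to 303127), 1.49 on chromosome 12 (74390 to 74768) and 1.47 on chromosome 11 (219853 to 221154). Of these, the first had an H3K27ac ratio above 1 in N2. It was -1.55 on chromosome 11 (782447 to 801163), -1.37 on chromosome 8 (916027 to 924317), -1.35 on chromosome 3 (571577 to 577466), -1.26 on chromosome 24 (592986 to 597825) and -1.19 also on chromosome 24 (17096 to 19608). The adjusted p of these differences was 0.014 or less by limma. The call on chromosome 12 was lost without Kcr C0 replicate 1 (difference 1.16) and without H3K27ac C0 replicate 2 (1.28).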

How the results depend on the processing

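The share of higher calls depended on the scale. Centred on the median difference, 1353 regions were higher and 1260 lower, with 600 and 60 at 2-fold or more and a median of 0. With equal library medians these were 1611 and 930, 740 and 35, and a median of 0.13. Equal medians and spreads gave 977 and 582, of which 116 and 45 passed 2-fold, at a median of 0.0927. On the pileup alone 440 and 63 regions passed 2-fold, at a median of -0.0773. Among regions with a mean enrichment above 0, 172 were higher, 16 of them by 2-fold, at a median of -0.49, and among those with a mean pileup above the median 114 were higher, 10 of them by 2-fold, at a median of -0.53. A pseudocount of 5 left 22 and 164 regions at 2-fold. Without 1 library, 732 to 753 regions were higher and 1859 to 1977 lower, 261 to 284 and 272 to 292 at 2-fold or more, with medians of -0.31 to -0.30.

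Replicate numbers did not pair the libraries (correlation of same-numbered deviations 0.03 between N2 and C0), and with the replicate block 895 regions were higher and 2052 lower. For the interaction, 69 regions were negative with equal medians and spreads. Without 1 library it had 127 to 319 positive and 97 to 234 negative regions, with the low counts without a C0 library of H3K27ac (127 and 99 without replicate 1, 139 and 97 without replicate 2). With the block the interaction had 344 positive and 231 negative regions.

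Of the named regions, the highest-ranked region on chromosome 11 (1017219 to 1020476) turned to 0.51 with equal medians and spreads. The steady region on chromosome 25 turned to 0.21 after centring, 1.08 with equal medians and spreads, 0.34 with equal medians and 0.18 on the pileup alone. The causes were not tested. The N2 libraries had the lower depth, and its effect at weak regions was not tested. The interaction call on chromosome 12 (74390 to 74768) was lost without Kcr C0 replicate 1 (1.16) and without H3K27ac C0 replicate 2 (1.28), against 1.49 with all libraries.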

Other observations

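The chromosomes shared the general shift and differed in the regions whose call did not depend on the scale. All 30 chromosomes had more regions lower than higher as measured, and their median log2 differences lay between -0.52 on chromosome 15 and -0.11 on chromosome 30. With equal medians and spreads 29 of the 30 had more regions higher than lower. Of the regions on chromosome 16, 23 of 123 (18.7%) were higher and 22 (17.9%) lower on all 4 scales. On chromosome 29, 14 of 80 (17.5%) were higher and 6 (7.5%) lower, and on chromosome 15, 4 of 112 (3.57%) were higher and 24 (21.4%) lower. Over all chromosomes these shares were 8.57% and 13.6%. Chromosomes were not tested against each other.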
